A study of Mus musculus with 5 samples.

Results

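Among sorted CD4 T cell libraries from injured mouse kidneys, 329 of 38417 retained cell barcodes had the transcripts of monocytes. Monocytes are white blood cells that leave the blood for injured tissue, where they can become macrophages or dendritic cells. In mice the classical kind is known by high Ly6c2 and Ccr2, the receptor for the chemokine Ccl2, and the non-classical kind by Nr4a1, Treml4, Ace and high Cx3cr1. Classical monocytes are the first of the mononuclear phagocytes to enter a kidney after its blood flow has been stopped and restored. Resident kidney macrophages, by contrast, make the complement components C1qa, C1qb and C1qc.

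The barcodes were chosen from measured values. A barcode was retained with at least 500 detected genes and under 10% of its unique molecular identifiers (UMIs, each standing for 1 captured transcript) from mitochondrial genes. A retained barcode was taken as a monocyte when its summed C1qa, C1qb and C1qc UMIs were under 5 and at least 3 of the 6 genes Fn1, F13a1, Vcan, Chil3, Hp and Gda had a UMI. All 40778 deposited barcodes were read, and each library gave between 18 and 131 monocyte barcodes, called members below. Every gene of the rule is therefore described without a test. Nothing in the files measures whether these cells had entered the kidney, so the name monocyte rests on transcripts alone.

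Single-cell 3′ RNA-seq was done on 5 libraries. Each held sorted CD4 T cells from the kidneys of 10-week-old mice that had undergone ischemia-reperfusion injury. The 2 control libraries came from Il1rl1fl/fl mice, in which Il1rl1, the gene of the IL-33 receptor ST2, is flanked by loxP sites. The 3 knockout libraries were from mice with the same floxed alleles and Foxp3YFP-Cre (Il1rl1fl/fl Foxp3YFP-Cre). There Foxp3, a gene of regulatory T cells, drives the Cre recombinase. Titles of the control libraries read wild type, whereas their genotype label gives the floxed alleles, and the genotype label is used here. By that label both groups carried the floxed Il1rl1 alleles and the same injury, and the time after injury was not in the labels. The Foxp3YFP-Cre allele was in the knockout group alone, so it cannot be told apart from the loss of Il1rl1 in regulatory T cells. Foxp3 is not a gene of monocytes. Nothing in the labels says that each library was a separate animal, so every p-value below measures the spread between libraries, which may be technical.

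The sort used antibodies to CD45, T cell receptor β, CD4, CD25 and CD127, and the members were in its output. Retained barcodes per library numbered 4241 to 10320, with median UMIs of 3786 to 13534. Control 1 had the deepest barcodes. The 10 pairs of libraries shared 180 barcode sequences in all, at most 39 in any pair, and no member barcode was shared. Il1rl1, the targeted gene, was at 17.0, 2.80, 118, 20.6 and 11.9 counts per 1000000 UMIs (CPM) in the summed members of control 1, control 2, knockout 1, knockout 2 and knockout 3. Its levels in the T reference, barcodes with at least 2 of 6 T cell receptor complex genes, none of the 6 monocyte genes and under 5 C1q UMIs, were 14.9, 13.2, 66.6, 38.5 and 27.9 CPM in the same order. In neither population were the knockout libraries as a group below the controls. A 3′ tag outside a deleted part does not read the deletion, and Cre acts only where Foxp3 is expressed, so these levels do not check the labels.

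The label was checked against 18 monocyte marker genes, all of which were detected. Of these, 7 cannot test it, the 6 genes of the rule and Lyz2, which is used further on to divide the members, and the T reference was chosen to lack the 6. The other 11 summed to 5071, 4627, 3077, 3549 and 2441 CPM in members over the 5 libraries in the order above. They summed to 1353 to 1604 CPM in C1q cells (barcodes with 10 or more C1q UMIs) and to 804 to 980 CPM in the T reference, under the members in every library. Lyz2, the lysozyme of myeloid cells, was detected in 97.0% of members, in 3.42% to 10.1% of T reference barcodes and in 88.4% to 95.0% of C1q cells, so it separates the members from T cells and not from macrophages. Csf1r, the receptor for the macrophage growth factor M-CSF, was likewise found in 87.5% of members, 0.688% to 1.40% of the T reference and 69.3% to 77.3% of C1q cells. Plac8 was detected in 84.5% of members, in 5.61% to 11.1% of the T reference and in 7.19% to 24.1% of C1q cells. Ccr2 was detected in 93.6% of members, but also in 23.6% to 51.2% of T reference barcodes, whose median depth was lower. Ly6c2 was detected in 73.6% of members and in 13.4% to 27.7% of the T reference. After thinning to 2000 UMIs per barcode, Ly6c2 was found in 16.7% to 43.6% of members and 8.94% to 16% of the T reference, and Plac8 in 33.3% to 67.9% of members and 2.59% to 5.57% of the T reference. Of the rule's own genes, Gda, a guanine deaminase, was detected in 93.6% of members, Fn1 in 92.7%, F13a1 in 83.0%, Hp in 79.6%, Vcan in 73.3% and Chil3 in 59.0%.

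**Figure D1:**
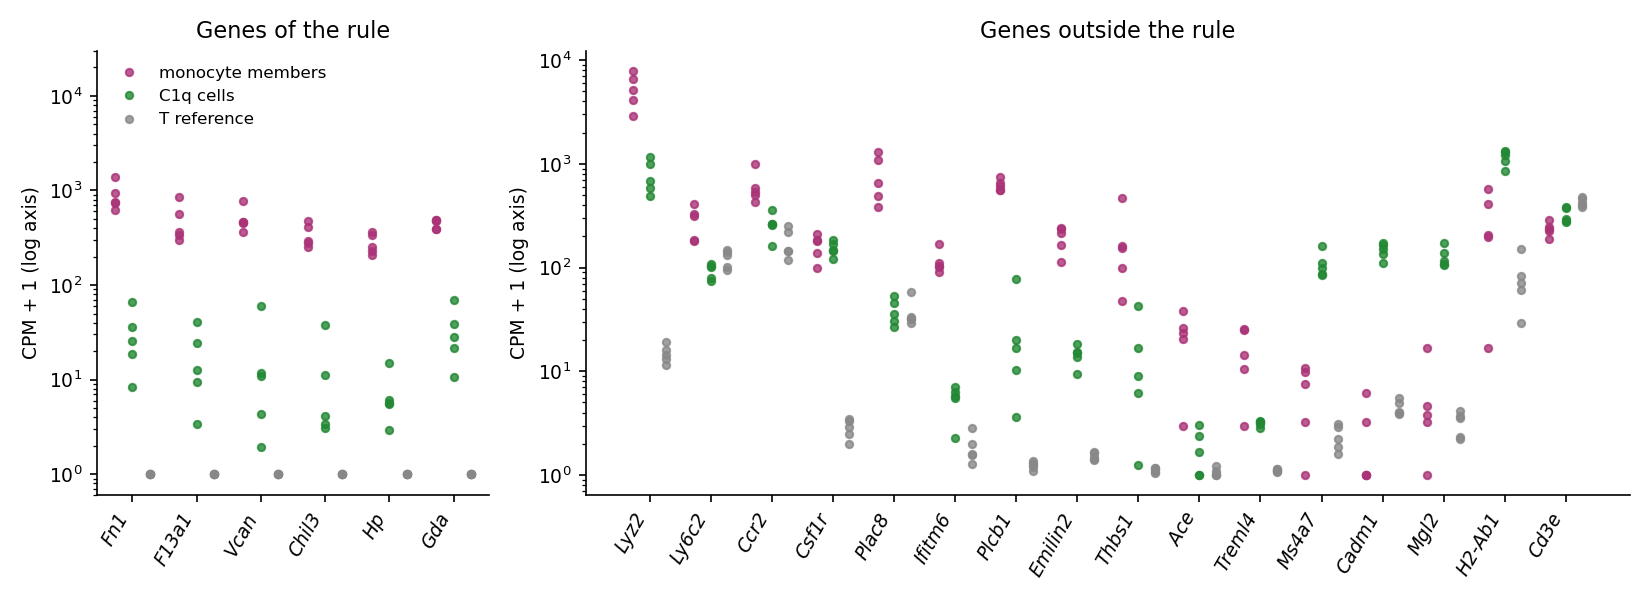
CPM plus 1 on a log axis for the genes of the rule (left) and other genes (right) in the summed monocyte members, C1q cells and T reference of each library, 1 point per library and population. Lyz2 lies between 2877 and 7878 CPM in members, above all other points of that gene, while Ms4a7, Cadm1 and Mgl2 are higher in C1q cells, and the T reference is at 0 for the rule's genes because it was chosen so.

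Genes of other cell types were read the same way in the summed members. Of 12 neutrophil genes, 6 had no UMI in any member (S100a9, Ly6g, Retnlg, Camp, Ltf and Ngp), and the list summed to 80.3 to 167 CPM. Of 6 mast cell and basophil genes, 5 had no UMI. Among 12 dendritic cell genes 11 were detected, with sums of 87.0 to 167 CPM, and C1q macrophage genes summed to 570 to 1061 CPM. All 8 B cell genes were detected, at 128 to 221 CPM in 4 libraries and 404 CPM in knockout 3. Of 6 natural killer cell genes 5 were detected (3.98 to 23.8 CPM). Tubule epithelium genes, 6 of 10 detected, summed to 1.40 to 11.8 CPM in 4 libraries and to 163 CPM in knockout 3. In knockout 3 both the B cell and the tubule sum thus stood apart, and without the barcodes outside the Lyz2 members, defined further on, they were 144 and 6.14 CPM.

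T cell transcripts were abundant in the members. The 6 genes of the T cell receptor complex gave a median of 48, 26, 75, 28 and 18 UMIs per member. Barcodes of the T reference had medians of 51, 19, 32, 19 and 18. In 4 of 5 libraries the median of the members was thus at or above that of T cells, control 1 being the exception. More than 2 such UMIs were found in 291 of 329 members (88.4%), and only 38 members, 21 of them in control 1 and 0 in knockout 1, had 2 or fewer.

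Members were also large. Their median UMIs were 29057, 10979, 21154.5, 12169 and 14198.5, which was 2.15, 2.90, 2.80, 2.75 and 3.45 times the median of all retained barcodes of the same library. Relative to UMIs, the 14 genes of the T cell list stood at 53.9%, 63.5%, 70.2%, 66.5% and 46.2% of their level in the T reference. C1q cells of the same libraries stood at 79.0% to 86.4%. No doublet caller was run and no barcode was removed as a doublet, and whether members are barcodes with more than 1 cell was not tested.

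**Figure D2:**
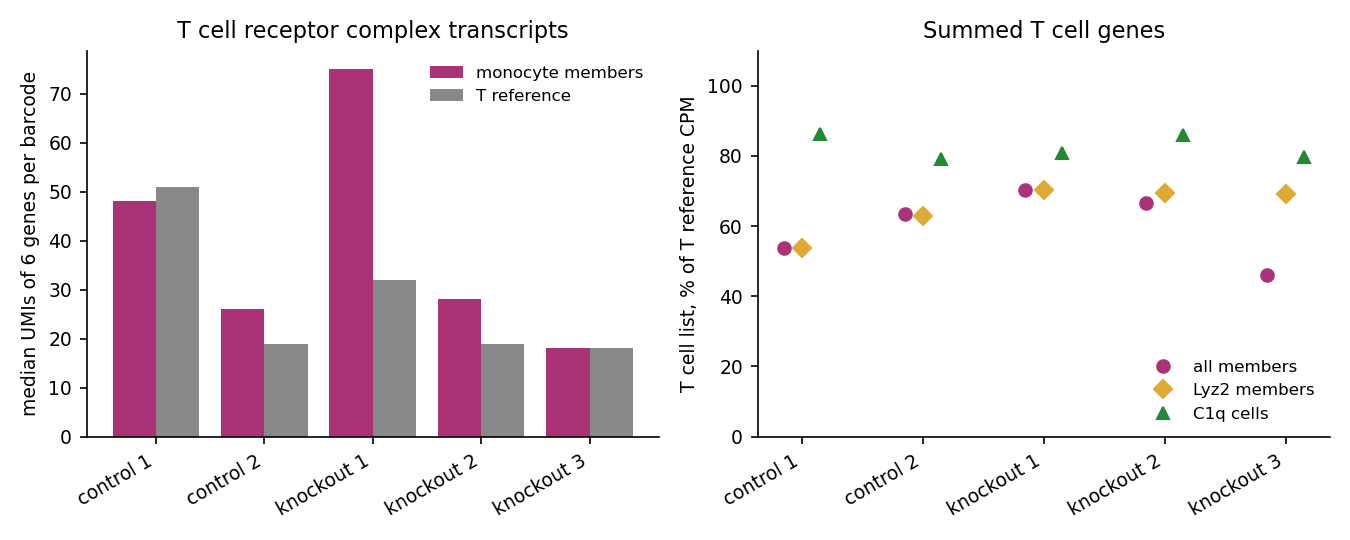
Left, median UMIs of 6 T cell receptor complex genes per barcode in monocyte members and in the T reference of each library; right, summed CPM of the 14-gene T cell list as a percent of its level in the T reference. Members carry 18 to 75 such UMIs, and in all members the list stands at 46.2% to 70.2% of the T reference, below C1q cells in each library.

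A small part of the members did not have the monocyte profile. No Lyz2 UMI was found in 10 members, 6 of them in knockout 3, and 5 or more UMIs of the collagen genes Col1a1, Col1a2 and Col3a1 were found in 7 members, 5 of them in knockout 3. These 7 barcodes held 33.7% of all member UMIs in knockout 3, 4.17% in knockout 2 and 2.36% in control 2. Col1a1, the main chain of fibrous collagen, was accordingly at 0, 42.0, 0, 93.5 and 4140 CPM. Knockout 3 stands apart from the other libraries in this, and the label does not hold for these barcodes. Values are therefore given for all members and for the 319 members with a Lyz2 UMI and under 5 collagen UMIs, called Lyz2 members, a group chosen after the values were seen.

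At the border of the rule, 3 of the 6 genes were detected in 68 members and all 6 in 130. Barcodes with 2 of the 6 genes, just outside, numbered 44, 23, 17, 21 and 10. Those with 3, just inside, numbered 22, 12, 5, 21 and 8. Median Lyz2 UMIs just inside were 31.5, 14.5, 6, 11 and 0, and just outside 4, 4, 3, 8 and 5.5. Members with all 6 genes had medians of 354, 111, 143.5, 107.5 and 70. Apart from knockout 3, median Lyz2 UMIs thus rose with the number of the 6 genes. These medians are not scaled to depth. Median UMIs of all genes were 27623.5, 7322, 10212, 8230 and 12351 just outside and 23066, 7965.5, 18945, 11864 and 15793.5 just inside. They were thus higher just inside in every library but control 1, and the part of depth in the rise of Lyz2 was not tested. In knockout 3 the median Lyz2 UMIs were lower just inside the border, at 0, than just outside, at 5.5. Its median just inside was also the lowest of all libraries.

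Plac8, F13a1 and Gda carry the sequences shown here. Among the named genes outside the rule, Plac8 alone passed in all 9 fits comparing Lyz2 members with C1q cells. Passes of the other genes were not counted over these fits. F13a1 and Gda are genes of the rule with a motif match. The 250 bases before the start of each by RefSeq on GRCm38.p6 are given, 5′ to 3′ on the gene's strand. Matches on either strand to GAGGAA, the core bound by PU.1-type ETS factors, and to TTGCNNAA, a C/EBP half-site pair, are in capitals. PU.1 (Spi1) and the C/EBP proteins are the master transcription factors of the monocyte lineage.
Plac8, chr5:100572206-100572455, minus strand: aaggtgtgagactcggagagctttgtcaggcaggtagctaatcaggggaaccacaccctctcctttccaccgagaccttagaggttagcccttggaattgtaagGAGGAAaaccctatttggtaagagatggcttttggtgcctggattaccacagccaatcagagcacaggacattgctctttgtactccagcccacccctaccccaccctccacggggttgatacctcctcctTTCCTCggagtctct
F13a1, chr13:37050245-37050494, minus strand: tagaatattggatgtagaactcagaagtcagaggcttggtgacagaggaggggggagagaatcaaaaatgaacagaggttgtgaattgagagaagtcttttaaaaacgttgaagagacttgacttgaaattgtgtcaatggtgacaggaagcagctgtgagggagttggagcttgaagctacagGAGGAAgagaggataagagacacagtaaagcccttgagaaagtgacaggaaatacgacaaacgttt
Gda, chr19:21472662-21472911, minus strand: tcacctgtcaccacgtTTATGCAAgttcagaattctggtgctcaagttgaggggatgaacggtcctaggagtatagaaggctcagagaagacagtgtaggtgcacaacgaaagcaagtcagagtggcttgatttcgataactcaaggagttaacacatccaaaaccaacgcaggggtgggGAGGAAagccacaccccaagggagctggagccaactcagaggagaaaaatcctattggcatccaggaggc
Plac8 had 2 matches to GAGGAA, F13a1 1, and Gda 1 to each motif. For Plac8 and for F13a1, 1 of 2 listed windows is shown. By the GENCODE coordinates of Plac8 given below, the end of its window, with the match TTCCTC, lies inside the gene. The corresponding windows of Vcan, Chil3, Lyz2 and Ccr2 had none. Of 27025 promoter windows of the same length, 23.1% held GAGGAA and 9.55% TTGCNNAA. A match describes letters only. Spi1 itself was at 335, 280, 266, 236 and 165 CPM in the members and at 5.88 to 12.4 CPM in the T reference.

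The rule's genes stood far above the C1q cells by construction, and other genes followed them. Plac8, a small cysteine-rich protein of myeloid cells, averaged 780 CPM in members and 37.3 CPM in C1q cells, with a smallest log2 ratio over libraries of 2.99. Plcb1, a phospholipase C that acts below G protein-coupled receptors, averaged 623 against 24.8 CPM. Ifitm6, Thbs1 (thrombospondin 1), Emilin2 and Stxbp6 were also at least 2.32 log2 units higher in members in every library. In the other direction stood Cadm1, Lilra5, Ms4a7, Mgl2, Slamf9 and Cd36, the last a scavenger receptor for lipids. Ms4a7, a marker of tissue macrophages, averaged 5.50 CPM in members and 108 CPM in C1q cells. All these ratios are descriptions, because the same barcodes were chosen by C1q and the monocyte genes.

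Chil3 divided the Lyz2 members. Chil3 encodes the chitinase-like protein Ym1, which marks monocytes of the classical kind shortly after they leave the bone marrow. In each of the 5 libraries the members with a Chil3 UMI had lower H2-Ab1, a chain of the antigen-presenting MHC class II molecule, than those without. Its level with Chil3 was 47.1, 51.5, 472, 144 and 8.22 CPM, and without Chil3 1067, 406, 1084, 306 and 36.4 CPM. Cd74, the invariant chain of MHC class II, had medians over libraries of 309 CPM with and 1554 CPM without Chil3 and was lower with Chil3 in 5 of 5 libraries. Vcan, the proteoglycan versican and a gene of the rule, had medians of 610 and 199 CPM and was higher with Chil3 in 5 of 5. Treml4, a gene of the non-classical kind, was also higher with Chil3 in 5 of 5, with medians of 13.4 and 7.33 CPM. Ly6c2 had medians of 305 and 372 CPM and was higher with Chil3 in 3 of 5. The values without Chil3 rest on only 4 members in knockout 1 and 8 in knockout 3. T cell receptor complex genes had medians of 2689 and 2753 CPM and were higher with Chil3 in 3 of 5. The split was made on a gene of the rule, and median UMIs were higher with Chil3 in all 5 libraries, so no test is given.

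**Figure D3:**
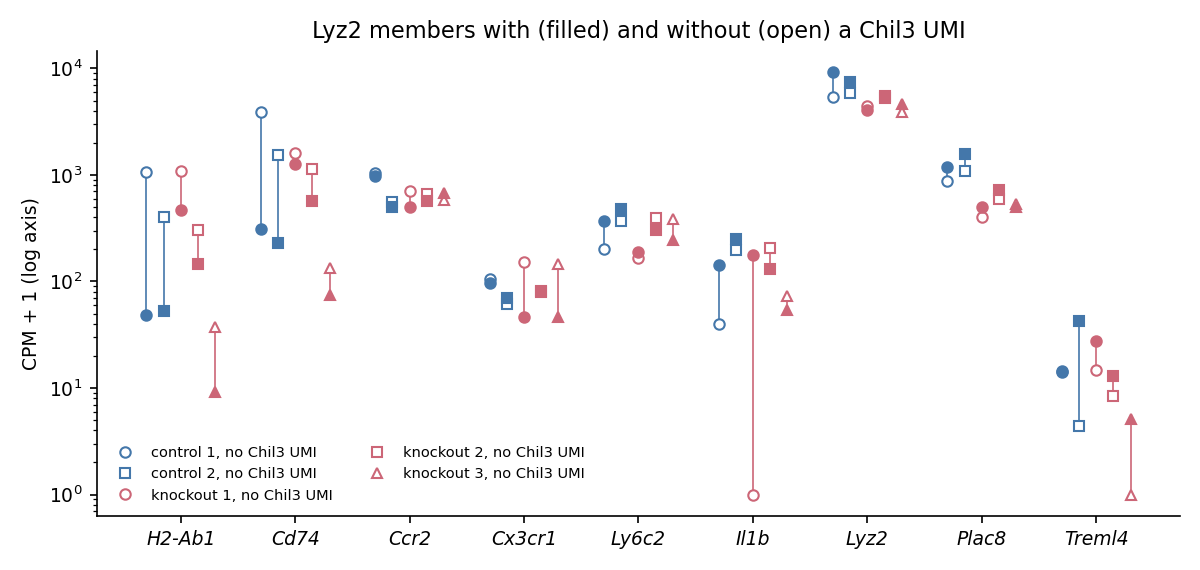
CPM plus 1 on a log axis of 9 genes in Lyz2 members with a Chil3 UMI (filled) and without one (open), joined by a line within each library. H2-Ab1 and Cd74 lie lower with Chil3 in all 5 libraries, whereas Ccr2, Ly6c2 and Cx3cr1 go in different directions between libraries.

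Genes of the non-classical monocyte, of which Ace and Treml4 were chosen after their values were seen, were present in a part of the members. Ace, the angiotensin-converting enzyme, was detected in 17.0% and Treml4, a receptor that amplifies signals of nucleic acid sensors, in 13.4%. Ace or Treml4 was detected in 37 of 131, 13 of 55, 9 of 18, 22 of 95 and 2 of 30 members, 25.2% in all. Cx3cr1, the fractalkine receptor, was detected in 58.4% of members, at 98.5, 63.0, 62.5, 76.6 and 45.8 CPM. It was also detected in 71.2% to 83.4% of C1q cells, so it does not separate the members from macrophages. Nr4a1, the transcription factor that non-classical monocytes depend on, was at 61.9, 42.0, 29.0, 24.3 and 27.9 CPM, with both controls above the 3 knockouts. The 12 listed genes of this kind did not move with it. Of 9 tested in Lyz2 members with knockout 1, 4 were higher and 5 lower, 0 passed in edgeR and the median log2 difference was -0.01.

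The first question of the design is whether the knockout changed how many monocytes were found among the sorted cells. Members were 1.38% and 0.609% of retained control barcodes, and 0.424%, 0.921% and 0.561% of those of the knockouts. The exact (Clopper-Pearson) 95% intervals, which cover counting error only, were 1.16 to 1.64%, 0.459 to 0.793%, 0.252 to 0.670%, 0.745 to 1.12% and 0.379 to 0.800%. Control 1 was the highest library, and the other control lay within the range of the knockouts. The means were 0.995% ± 0.546 (SD, n = 2) and 0.635% ± 0.256 (SD, n = 3), a difference of -0.360 percentage points (two-sided exact permutation test, p = 0.4, with 0.2 the smallest that 2 against 3 libraries allow). Without control 1 the difference was 0.0260 percentage points, so its direction rested on that library. When each barcode was thinned to 2000 UMIs the shares were 0.860%, 0.430%, 0.461%, 0.506% and 0.465%. These are shares of a CD4 T cell sort and do not measure the monocytes of the kidney.

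**Figure D4:**
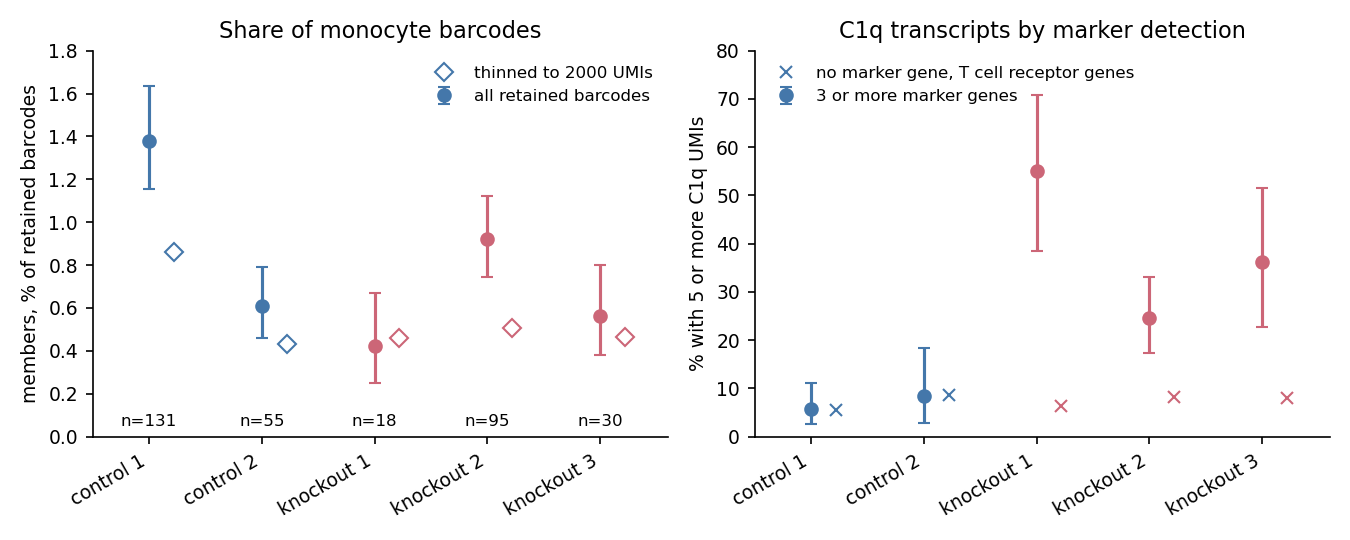
Left, monocyte members as a percent of retained barcodes with 95% binomial intervals, and the share after thinning to 2000 UMIs; right, percent of barcodes with 5 or more C1q UMIs among those with 3 or more monocyte genes and among T cell barcodes with none. Control 1 is the highest library at left, and at right the knockouts lie at 24.6% to 55.0% against 5.76% and 8.33% in the controls.

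Barcodes that joined monocyte genes with C1q transcripts were more frequent in the knockout libraries. Of all retained barcodes with 3 or more of the 6 genes, 8 of 139 and 5 of 60 held 5 or more C1q UMIs in the controls, or 5.76% (95% interval 2.52 to 11%) and 8.33% (2.76 to 18.4%). In the knockouts these were 22 of 40 (55.0%, 38.5 to 70.7%), 31 of 126 (24.6%, 17.4 to 33.1%) and 17 of 47 (36.2%, 22.7 to 51.5%). The 3 knockouts lay above both controls. T cell barcodes with none of the 6 genes held 5 or more C1q UMIs in 5.59%, 8.55%, 6.38%, 8.31% and 7.96%, so these did not separate the groups. C1q cells were 4.69%, 6.24%, 6.15%, 6.12% and 7.33% of retained barcodes. The barcodes with both kinds of transcript had median UMIs of 48277.5, 9385, 39349, 21725 and 26542, which in 4 of 5 libraries, control 2 being the exception, was over the median of the members. Whether they are cells between monocyte and macrophage or barcodes with more than 1 cell was not tested. The pattern was noticed in the data and the rule itself used the C1q threshold, so no p-value is given.

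With these barcodes counted in, barcodes with 3 or more monocyte genes were 1.47%, 0.665%, 0.943%, 1.22% and 0.879% of retained barcodes. The knockouts then lay between the 2 controls.

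The second question is whether the members differed between genotypes in their genes. The C1q threshold set apart 5.76% and 8.33% of the controls' barcodes with 3 or more monocyte genes. In the knockouts it set apart 55.0%, 24.6% and 36.2%, so the members are not the same part of these barcodes in both groups. The effect of this on the genes below was not tested. UMIs were summed over each library's members, and edgeR's quasi-likelihood test was applied. Knockout 1, with 18 members, was under the minimum of 20 set for a library and was left out, so 2 controls stood against 2 knockouts. None of 8967 genes tested passed an adjusted p of 0.05 (0% called), and 751 genes had an unadjusted p under 0.05, 431 of them higher (4.81%) and 320 lower (3.57%) in the knockouts. In simulated counts edgeR recovered 1% of 2-fold changes, so a gene that did not pass is not shown to be unchanged. Groups did not overlap in 21.9% of genes with the knockouts higher and in 17.5% with the knockouts lower. DESeq2 called 61 genes on the same sums (0.68%), 56 of them higher. With knockout 1 included, edgeR called 0 of 8315, with 668 at an unadjusted p under 0.05. Without knockout 2 edgeR called 733 genes and without knockout 3 it called 116, where 1 knockout library stood alone and was assumed to vary like the controls.

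The genes nearest to the threshold on the higher side came from barcodes outside the Lyz2 members. Ccdc80, a secreted matrix protein, was at 2.72, 5.60, 0, 90.5 and 123 CPM (log2 difference 4.96, adjusted p = 0.0717 in edgeR without knockout 1). Il1r1, the receptor for interleukin 1, was at 2.95, 8.40, 0, 132 and 243 CPM (5.46, adjusted p = 0.0944). Wnt4, Gfpt2, Slit3 and Cryab were the next 4. Knockouts 2 and 3 were high in all 6, and knockout 1 was at 0. In Lyz2 members Ccdc80 was at 2.72, 0, 0, 0.769 and 0 CPM and Il1r1 at 2.95, 5.85, 0, 1.54 and 0 CPM, so the higher level was in the barcodes that these members leave out.

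**Figure D5:**
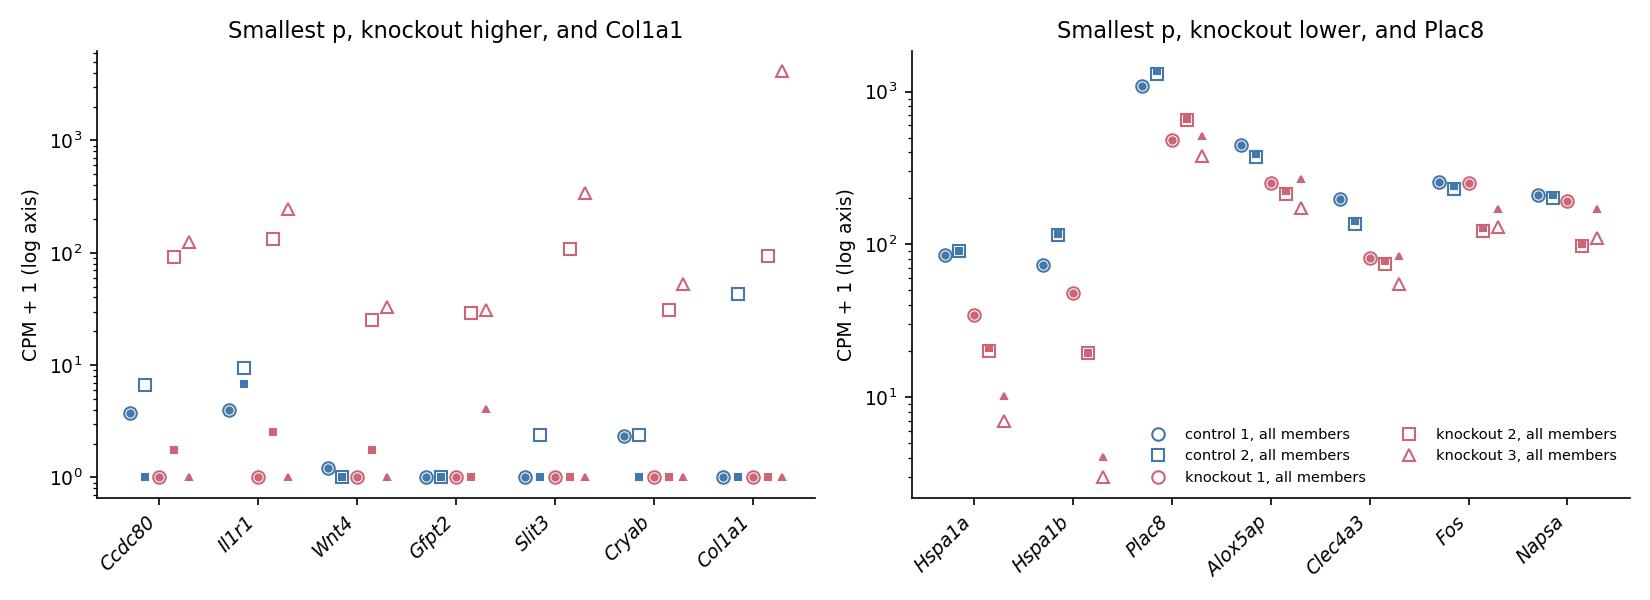
CPM plus 1 on a log axis in the summed members of each library (open symbols) and in the Lyz2 members alone (small filled symbols), controls in blue and knockouts in red. The genes at left are high in knockouts 2 and 3 only when the barcodes outside the Lyz2 members are counted, while Hspa1a, Hspa1b, Plac8, Alox5ap and Clec4a3 at right lie lower in every knockout library in both sets.

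In Lyz2 members of the 4 libraries 1 of 8677 genes passed (0.0115%), Hspa1a. Among the Lyz2 members of all 5 libraries, 2 of 8125 genes passed (0.0246% called), both lower in the knockouts: Hspa1a and Plac8. Without control 1, control 2, knockout 2 or knockout 3 the count was 28, 66, 28 or 0. Hspa1a (chr17:34969190-34972156, minus strand, GRCm38) encodes an inducible heat shock protein 70. It was at 84.4, 89.2, 33.5, 20 and 9.21 CPM in Lyz2 members. Both controls were above the 3 knockouts, and Hspa1a fell by 2.07 on the log2 scale (SE 0.29, edgeR adjusted p = 0.0413). Its near-identical neighbour Hspa1b (chr17:34956436-34959238), whose reads the counting could have exchanged with those of Hspa1a, was at 72.6, 116, 46.9, 18.5 and 3.07 CPM (-2.03, SE 0.42, adjusted p = 0.0812 in edgeR).

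Hspa1a was also lowest in knockouts 2 and 3 in the other cells of these libraries. The T reference had Hspa1a at 14.9, 27.3, 18.9, 4.53 and 2.53 CPM and C1q cells at 27.8, 52.6, 32.1, 11.1 and 8.98 CPM, with knockout 1 inside the range of the controls in both. The log2 difference in Lyz2 members minus that in C1q cells was -0.56 (SE 0.39, adjusted p = 0.990 in edgeR). Over 11 fits to Lyz2 members Hspa1a passed in 8, with log2 differences of -3.29 to -1.89 and adjusted p up to 0.845. With 5 libraries it was lost without knockout 2 (-1.97, adjusted p = 0.0579) and without knockout 3 (-1.89, adjusted p = 0.0765).

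Plac8 (chr5:100553725-100572245, minus strand) differed in the monocytes more than in the C1q cells. It was at 1080, 1360, 484, 665 and 510 CPM in Lyz2 members. The groups did not overlap, and Plac8 fell by 1.19 on the log2 scale (SE 0.17, edgeR adjusted p = 0.0413). It passed in 7 of 11 fits to Lyz2 members, at -1.35 to -0.92. Without knockout 3 it did not pass (-1.13, adjusted p = 0.112), and in all members it did not pass (-1.22, adjusted p = 0.241). The T reference had Plac8 at 28.2 to 57.3 CPM and C1q cells at 25.6 to 52.1 CPM, with knockout 1 highest in both.

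T cell transcripts were themselves a larger part of the knockout Lyz2 members. Their 14-gene list stood at 53.9%, 62.9%, 70.2%, 69.4% and 69.3% of the T reference, lower in both controls. Of 14 T cell genes 13 were higher, with a median log2 difference of 0.26, against 0.00 over all genes. Separately, 366 genes were taken whose T reference level was under 0.1 of the level in Lyz2 members, and fitted with library totals over these genes alone, a choice made after the values were seen. Of these 366, on the CPM scale over all genes, the knockouts were above the controls without overlap in 6.83% and below in 34.7%. Totals over the 366 genes alone raised their log2 differences by a median of 0.43, so a direction on this scale is relative to these genes. None of the 366 passed in edgeR (0% called) or in DESeq2 on the restricted totals, and at an unadjusted p under 0.05 stood 30 higher (8.2%) and 13 lower (3.55%). Plac8 was still lower on this scale, at -0.82 (SE 0.23, adjusted p = 0.215).

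Monocyte markers that chose neither set of members were lower in the knockouts relative to all genes. Of 10 tested in Lyz2 members, 10 were lower with a median of -0.46, 1 passed (Plac8), and 3 had an unadjusted p under 0.05, where the background was 5.65%. Relative to the restricted genes, 6 of these markers were tested, 3 were higher and 3 lower, and the median was -0.03. On totals over all genes the same 6 were all lower, with a median of -0.43, about the size of the shift between the scales. Lyz2, which chose the Lyz2 members, is given as description at 7878, 6812, 4150, 5383 and 4441 CPM. F13a1, the A chain of clotting factor XIII and a gene of the rule, was at 843, 591, 366, 314 and 501 CPM.

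Other genes of monocyte function did not pass in any direction. Clec4a3, an inhibitory C-type lectin receptor, was at 196, 142, 80.3, 76.9 and 82.9 CPM, with both controls above the knockouts (-1.19, adjusted p = 0.0564 in edgeR over Lyz2 members). Alox5ap, the partner of 5-lipoxygenase in leukotriene synthesis, was at 444, 390, 250, 222 and 267 CPM (-0.85, adjusted p = 0.0649). Ms4a4c, of the MS4A family of membrane proteins, was at 341, 307, 212, 192 and 166 CPM (-0.84, adjusted p = 0.0649). In these 3 genes the groups did not overlap, as in 731 of 8125 genes with the knockouts lower (9%) and 1319 with the knockouts higher (16.2%).

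Receptors of recruitment and growth showed no common direction. Of 15 tested, 6 were higher and 9 lower, 0 passed and the median was -0.21. Over the restricted totals 5 of 6 were higher, with a median of 0.13. Ccr2 was at 1002, 522, 533, 610 and 651 CPM in Lyz2 members, high in control 1 alone. Csf1r was at 212, 186, 138, 190 and 150 CPM and Ly6c2 at 311, 430, 183, 341 and 279 CPM, and the groups overlapped in both.

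Chemokine ligands had positive differences in Lyz2 members and 0 passed. Of 8 tested, 8 were positive, with a median of 0.29, and 2 had an unadjusted p under 0.05, beside 4.89% of all genes. Only 1 of the 8 had all knockouts above the controls, which 16.2% of all genes did. Over all members with knockout 1, 5 were positive and 2 negative of 7, and the median was 0.02. Over the restricted totals 5 of 5 were positive, with a median of 0.81, and 0 passed. Of these, 4 had an unadjusted p under 0.05 (8.2% of the 366 genes were higher at that p). On the CPM scale over all genes 1 of the 5 had all knockouts above the controls (6.83% of the 366 did). Ccl2, the ligand of Ccr2, was at 40.8, 70.2, 20.1, 96.9 and 92.1 CPM, lowest in knockout 1. Ccl9 was at 145, 126, 263, 155 and 147 CPM and Ccl6 at 344, 279, 303, 377 and 369 CPM.

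Inflammatory cytokine genes were mixed: of 10 tested, 5 were higher and 5 lower, 0 passed and the median was -0.08. Il1b, the inflammatory cytokine interleukin 1β, was at 105, 225, 147, 161 and 58.3 CPM in Lyz2 members and was detected in 36.8% of all members. Tnf was at 14.1, 21.9, 22.3, 20.8 and 12.3 CPM, under its level in the T reference of each library. For both genes the groups overlapped.

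Genes of repair had no common direction. Of 9 tested, 4 were higher and 5 lower, 0 passed and the median was -0.06, while over the restricted totals 5 of 7 were higher, with a median of 0.48. Their summed level was near the same in every library's Lyz2 members, 1484 to 1618 CPM. Arg1, the arginine-degrading enzyme of alternatively activated macrophages, was at 3.18, 5.85, 13.4, 74.6 and 6.14 CPM, high in knockout 2 alone. Spp1, osteopontin, was at 1.82, 71.6, 2.23, 92.3 and 0 CPM, high in 1 control and 1 knockout. Thbs1, a matrix protein that activates TGF-β and belongs to the clotting and matrix list, was at 46.3, 146, 471, 168 and 132 CPM (1.55, SE 0.51, adjusted p = 0.248 in edgeR), high in knockout 1 alone.

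MHC class II genes were lower by number, though the most abundant overlapped between groups. H2-Ab1 was at 413, 205, 571, 212 and 15.4 CPM in Lyz2 members and Cd74 at 1610, 800, 1319, 803 and 89.1 CPM, with knockout 3 the lowest and control 1 and knockout 1 the highest. Of 12 tested genes of the presentation list, 4 were higher and 8 lower, 0 passed, and the median was -0.38. An unadjusted p under 0.05 was found in 4 of those lower, beside 5.65% of all genes, and in 0 of those higher. All knockouts lay below the controls in 3 of the 12 genes (9% of all genes did) and above them in 0.

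Type I interferon response genes were mostly lower. These antiviral genes are switched on together by interferons α and β. In Lyz2 members they summed to 2060, 2117, 1885, 1977 and 1244 CPM. Knockouts 1 and 2 thus lay near the controls, and knockout 3 far below them. Knockout 3 was also the lowest library in other cells. The list summed to 1660, 1558, 1775, 1813 and 1471 CPM in the T reference. In C1q cells it summed to 1870, 1634, 1844, 2033 and 1399 CPM. Of 23 tested in Lyz2 members, 19 were lower, 0 passed and 9 had an unadjusted p under 0.05, all lower, beside a background of 5.65%, and the median was -0.51 against 0.00 over all genes. Ifi204, a sensor of DNA, was at 248, 184, 100, 151 and 126 CPM (-0.83, adjusted p = 0.103 in edgeR). Isg15, an ubiquitin-like protein, was at 90.8, 135, 234, 89.2 and 73.7 CPM, highest in knockout 1, so the list did not move as one.

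Interferon-γ response genes stood the other way. Of 18 tested, 16 were higher with a median of 0.30, 0 passed and 7 had an unadjusted p under 0.05, beside 4.89% of all genes. Gbp7, a guanylate-binding protein, was at 140, 137, 170, 224 and 169 CPM, and in the T reference at 220, 187, 235, 263 and 214 CPM. The 3 knockouts were above the controls in Lyz2 members, and the T reference had higher levels of Gbp7 than the members in every library. The 21 listed genes summed to 1663, 1531, 2113, 2284 and 1784 CPM in Lyz2 members. In the T reference they summed to 2143, 2095, 2470, 2510 and 2232 CPM, so there too every knockout was above both controls. Over the restricted totals only 1 gene of the list was tested. The part of T cell transcripts in the higher levels was not tested.

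Proliferation genes were higher in the knockout Lyz2 members, as a list without a single gene that passed. Of 18 tested, 18 were higher and 0 passed. An unadjusted p under 0.05 was found in 15, beside 4.89% of all genes that were higher at that p. In 13 all knockouts lay above the controls (16.2% of all genes did). The median was 1.30 against 0.00 over all genes. Mki67, the nuclear antigen of dividing cells, was at 110, 43.9, 332, 182 and 568 CPM (1.93, SE 0.41, adjusted p = 0.0833 in edgeR). Top2a, the topoisomerase that untangles replicated DNA, was at 83.0, 42.4, 259, 129 and 316 CPM (1.61, SE 0.34, adjusted p = 0.0812). T reference barcodes had Mki67 at 322, 366, 347, 440 and 693 CPM, above the Lyz2 members in each library. No gene of the list was among the 366 with a low level in the T reference, so these values do not show which of the cells in a barcode was dividing.

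Immediate early and heat shock genes were lower: of 19 tested in Lyz2 members, 17 were lower, 1 passed (Hspa1a) and 9 had an unadjusted p under 0.05, with a median of -0.56. Of all genes, 0.0246% passed and 5.65% were lower at that p. These genes respond within minutes to dissociation as well as to stress in the tissue. Fos, a subunit of the AP-1 factor, was at 255, 240, 252, 126 and 169 CPM. Hspa8, the constitutive heat shock protein 70, was at 1128, 1621, 971, 945 and 1155 CPM, and control 2 alone was high. The 19 listed genes summed to 3520, 4237, 3128, 2665 and 3062 CPM in Lyz2 members, with both controls above the knockouts. In C1q cells the sums were 2514, 3503, 2534, 2042 and 2768 CPM and in the T reference 2289, 3467, 2300, 1944 and 2587 CPM. There the groups overlapped, and control 2 was again highest and knockout 2 lowest.

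Fc receptors and genes of phagocytosis were lower in number: 11 of 15 tested, with 3 at an unadjusted p under 0.05 beside 5.65% of all genes, 0 passed and a median of -0.17. Over the restricted totals the list went the other way, with 9 of 13 higher, 4 lower and a median of 0.22. Sirpa, the inhibitory receptor for the CD47 signal on other cells, was at 194, 149, 98.2, 112 and 98.3 CPM, with both controls above the 3 knockouts (-0.81, adjusted p = 0.0848 in edgeR). Fcer1g, the signalling chain of Fc receptors, was at 708, 768, 509, 535 and 590 CPM, and Itgam, the CD11b integrin, at 172, 155, 183, 129 and 144 CPM.

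Glycolysis and hypoxia response genes split into 11 higher and 8 lower of 19 tested, with 0 passed and a median of 0.10. Pattern recognition receptors split into 5 higher and 9 lower of 14, with 0 passed and a median of -0.10. Over the restricted totals 8 of 10 were higher and 2 lower, 2 of those higher at an unadjusted p under 0.05 (8.2% of the 366 were), and the median was 0.41. Cd14, the co-receptor for bacterial lipopolysaccharide, was at 37.2, 49.7, 53.6, 34.6 and 46.1 CPM.

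Genes of T cell function led the genes higher in knockout Lyz2 members. Nkg7, of cytotoxic granules, was at 126, 133, 187, 325 and 258 CPM and in the T reference at 305, 328, 330, 483 and 386 CPM. Cxcr6, a chemokine receptor of tissue T cells, was at 81.7, 74.6, 174, 228 and 150 CPM and in the T reference at 249, 219, 349, 377 and 268 CPM. Rora, a nuclear receptor of innate-like and tissue T cells, was at 107, 92.1, 194, 244 and 197 CPM and in the T reference at 223, 211, 335, 433 and 248 CPM. All 3 were higher in the T reference than in the members of each library, and none passed in edgeR over the 5 libraries (adjusted p = 0.0864, 0.0564 and 0.0564).

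The transcription factors of the myeloid lineage were lower by number: 16 of 21 tested, 9 of them at an unadjusted p under 0.05 beside 5.65% of all genes, 0 passed, and the median was -0.23. Fos, Jun, Egr1, Atf3 and Nr4a1 are in this list and in that of immediate early genes. Over the restricted totals 6 of 10 were higher and 4 lower, with a median of 0.13.

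Bcl11a, a factor of lymphoid and dendritic cell progenitors and of none of the lists, was at 65.3, 43.9, 17.9, 17.7 and 6.14 CPM (-1.94, SE 0.32, adjusted p = 0.0564 in edgeR). Of 12 listed dendritic cell markers only 4 were tested, and these 4 were lower too, with a median of -1.18 and 0 passed. An unadjusted p under 0.05 was found in 3 of the 4, beside 5.65% of all genes that were lower at that p. The 12 listed markers summed to 167, 126, 87.0, 84.6 and 104 CPM in Lyz2 members, higher in both controls. They summed to 114, 113, 65.5, 48.4 and 73.5 CPM in the T reference, also higher in both controls. Their part in the level of Bcl11a was not tested.

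Among receptors of the IL-1 family, Il18r1 and Il18rap, the pair that forms the receptor for interleukin 18, were higher. Il18r1 was at 86.9, 87.7, 248, 407 and 117 CPM (1.59, SE 0.34, adjusted p = 0.084 in edgeR), and in the T reference at 177, 165, 371, 551 and 217 CPM, in the same order of groups. Il1rl1 was detected in 9.16%, 1.82%, 61.1%, 18.9% and 16.7% of members. T reference barcodes with an Il1rl1 UMI were 5.03%, 2.96%, 26.3%, 12.2% and 5.77%. The knockouts were higher than the controls in both populations, in barcodes of lower depth in the T reference, and the difference of the member shares did not pass (26.8 percentage points, exact permutation p = 0.2, the smallest possible, adjusted p = 0.978 over 11 shares).

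None of the 11 shares of members with a named transcript passed that test. More than 2 T cell receptor UMIs were found in 84.0%, 90.9%, 100%, 92.6% and 83.3% of members. Spp1 was found in 2.29%, 3.64%, 5.56%, 9.47% and 6.67%, with the 3 knockouts above the controls, a difference of 4.27 percentage points (p = 0.2 by the exact permutation test). After thinning to 2000 UMIs the shares were 0, 3.77%, 0, 4.26% and 3.33%, the groups overlapped and the difference was 0.643 percentage points. The T reference had Spp1 in 0.833% to 1.18% of barcodes.

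The third question is whether a knockout difference in the monocytes departed from that in the C1q macrophages of the same libraries, which is tested by an interaction with the library as a term. Over all members 1 of 12231 genes passed in edgeR (0.00818%), Il1r1 (chr1:40225080-40317257), at 6.11 (SE 0.65, adjusted p = 0.0427). Without control 1 it did not pass (4.14, adjusted p = 0.32), nor with knockout 1 (4.59, adjusted p = 0.641). In Lyz2 members it was -0.81.

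Over the Lyz2 members 46 of 11890 genes passed (0.387% called), 19 higher and 27 lower in the monocytes relative to the C1q cells. DESeq2 called 2 and edgeR with RLE factors 25. Without control 1, control 2, knockout 2 or knockout 3 the count was 63, 260, 94 or 56. Among the named genes outside the rule Plac8 passed in the most fits to Lyz2 members, 9 of 9, at -1.77 to -1.04. Its difference was -1.34 (SE 0.19, adjusted p = 0.000386 in edgeR). In all members it did not pass (-1.53, adjusted p = 0.124). Plac8 averaged 37.3 CPM in C1q cells and 35.9 CPM in the T reference. T cell transcripts were a larger part of the knockout Lyz2 members, and Plac8 did not pass on the restricted totals. The part of T cell transcripts in this and the other lower differences was not tested. The 9 fits share libraries. Sirpb1b, an activating receptor of the SIRP family, passed in 8 of 9 (-1.76) and Ms4a4c in 7 of 9 (-1.33).

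The C1q cells of the knockouts held more barcodes with monocyte genes, whose part in this result is given next. Of C1q cells, 4, 4, 19, 26 and 17 had 3 or more of the 6 genes. F13a1 (-2.41) and Fn1 (-1.44) were among the 46, but they are genes of the rule and are given as description. When the C1q cells were limited to those with under 3 of the 6 genes, 12 genes passed, Plac8 among them at -1.32 (adjusted p = 0.000942), and Mki67 did not (1.37, adjusted p = 0.0552).

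Of the 19 genes higher in the monocytes relative to C1q cells, Cenpf and Aspm passed in the most fits of those named here. Cenpf, a kinetochore protein, was at 15, 10.2, 46.9, 40.8 and 129 CPM in Lyz2 members and at 88.8, 57.8, 52.1, 75.7 and 119 CPM in C1q cells (2.11, SE 0.32, adjusted p = 0.000646), and it passed in 8 of 9 fits. Aspm, a spindle pole protein, passed in 7 of 9 (2.54). In the T reference Cenpf was at 70.2, 64.1, 62.7, 86.4 and 125 CPM. The controls' Lyz2 members were thus far under both other populations, and the knockouts' nearer to them, and T cell genes also stood higher in the knockouts' Lyz2 members (69.3% to 70.2% of the T reference, against 53.9% and 62.9%). Their part in the result was not tested.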

How the data were processed

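Single-cell 3′ RNA of sorted kidney CD4 T cells was measured in 5 libraries. The deposited values are whole UMI counts per gene and barcode. Cell Ranger 8.0.0 made them, per the file headers. Seurat 5.1.0 and mm10 also stand in the submitters' processing notes. Libraries held 4580 to 10899 barcodes and 31053 genes. Counts were summed over the members of each library and scaled to counts per 1000000 (CPM). Genotypes were compared with edgeR 4.0.16 (TMM, quasi-likelihood, Benjamini-Hochberg over all genes tested, threshold 0.05) in libraries with at least 20 members. Fits over all 5 libraries also took in knockout 1, whose 18 members are under that minimum. The list counts in Lyz2 members and the values over the restricted totals come from such fits. DESeq2 1.42.0, other filters and member rules, a replicate block and left-out libraries were alternatives. Lyz2 members, monocyte-restricted genes and their refits were chosen after seeing the data. The members and gene lists were chosen with earlier results of these data known. Named genes were those passing without overlap between groups, filled to 6 in each direction by smallest p; a fixed set of monocyte genes; and the 4 of each list with the highest mean CPM. The 12 most extreme in each direction described members against C1q cells. Other names are said to be chosen after their values were seen. Shares were compared by exact permutation tests and intervals are exact binomial. Scripts were tested on simulated counts of all members with known changes. There edgeR recovered 1% of 2-fold and 58% of 4-fold changes in the members, with 0 false among 59 calls. When each gene kept its own spread, 64% of 4-fold changes were recovered and 20 of 85 calls were false. For the difference from C1q cells 1 of 59 and 25 of 87 calls were false. Promoter windows come from RefSeq on GRCm38.p6 and gene coordinates from GENCODE on GRCm38. Sums rest on 448173 to 4407358 UMIs per library, so control 1 is the most precise. A few listed genes are not reported here.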

Additional observations from a re-analysis of the deposited data

Results flagged for a closer look

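Each gene below had a knockout difference in monocytes that departed from that in C1q cells, by the interaction test of edgeR. T cell transcripts stood higher in the knockouts' Lyz2 members, and their part in these differences was not tested. Over all members this was Il1r1 at 6.11, and -0.81 in the Lyz2 members. Over Lyz2 members, a group chosen after seeing the data, the difference was -1.34 for Plac8, -1.76 for Sirpb1b, -1.33 for Ms4a4c and -1.28 for Lrp1, an endocytic receptor. It was 2.11 for Cenpf, 2.54 for Aspm, 1.37 for Mki67 and 1.02 for Odc1, the first enzyme of polyamine synthesis. It was 3.8 for Dscam, which had at most 28.5 CPM in Lyz2 members and was at 0 in control 2. The fitted 9.98 for Clnk is no measure of size, since Clnk was at 0 in every library's Lyz2 members except knockout 2, where it was at 13.1 CPM. Of these, Plac8 passed in 9 of 9 fits to Lyz2 members, Cenpf and Sirpb1b in 8, Aspm and Ms4a4c in 7, Dscam, Odc1 and Lrp1 in 6, and Mki67 and Clnk in 5.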

How the results depend on the processing

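For all members, edgeR called 0 genes; DESeq2 called 61, no filter on low counts 832, exclusion of barcodes with other cell types' genes 5, Lyz2 members 1, Lyz2 members with knockout 1 2, and Lyz2 members with DESeq2 4. Leaving out 1 library gave 0 to 733 genes, and among Lyz2 members 124, 0, 57 and 51 without control 1, control 2, knockout 2 and knockout 3, or 28, 66, 28 and 0 with knockout 1 included. Where 1 library is then left in a group, it is assumed to vary like the others. The low T cell rule was not run for genes, since it left at least 20 members in control 1 alone. For the departure from C1q cells (1 gene), DESeq2 called 21, no filter 318, RLE factors 0, the addition of knockout 1 0, Lyz2 members 46, and leave-one-out fits 0 to 826. In Lyz2 members further fits called 12 (C1q cells under 3 markers), 2 (DESeq2), 25 (RLE), 13 (with knockout 1), and 63, 260, 94 and 56 when the same libraries were left out in turn. The same-numbered libraries share only a number: their deviations correlated at r = 0.0687 over 8315 genes, and the replicate block gave 179 genes and a share difference of -0.377 on the logit scale. The share difference ranged from -0.746 to 0.0260 percentage points when 1 library was left out. The direction turned for Ccr2 when thinned (-2.35) and in members low in T cell UMIs (-27.1), and in the latter for H2-Ab1 (11.9), Cd209a (7.14) and S100a8 (-4.76), all differences in percentage points. Fos (0.11) and Napsa (0.12) turned over monocyte-restricted totals without knockout 2. Il1r1 turned in Lyz2 members (-0.81), there with DESeq2 (-1.40), RLE (-0.84), C1q cells under 3 markers (-0.80) and knockout 1 (-1.99), and at -2.48, -0.32, -6.43 and -0.47 with each library left out in turn. Vegfc (-5.52) and Plxna4 (-3.53) turned in Lyz2 members without knockout 2. The cause was not tested. Of the other values for single genes, 372 stayed on their side of the threshold, 247 came to pass it and 3 no longer passed.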

Other observations

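Among the monocyte-restricted genes, 2 were chosen after their values were seen. Tlr4, the receptor for bacterial lipopolysaccharide, was at 25.2, 19.0, 49.1, 35.4 and 33.8 CPM in Lyz2 members, with all knockouts above the controls. Ccr1, a chemokine receptor, was at 48.8, 32.2, 66.9, 64.6 and 82.9 CPM. Neither passed in edgeR (1.15 and 1.12 over the restricted totals, adjusted p = 0.226 and 0.208), and 6.83% of the 366 genes had all knockouts above the controls.

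The main limits are 2 control libraries, 18 to 131 members per library, T cell transcripts in 88.4% of members, and collagen barcodes that held 33.7% of member UMIs in knockout 3. The C1q threshold also set apart a larger part of the barcodes with 3 or more monocyte genes in the knockouts.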
